A study of Homo sapiens with 12 samples.

Results

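The experiment described here asks which genes change in unstimulated BT549 cells when c-Jun is knocked down. It comprised 6 of the 12 arrays of the series, chosen by their labels: 3 arrays of cells given a pool of siRNAs against c-Jun and 3 of cells given a control siRNA. Both groups spent 72 hours with siRNA and then 6 hours with vehicle. All arrays came from BT549, an established human triple-negative breast cancer line with mesenchymal character. The other 6 arrays carried the same siRNAs and received the inflammatory cytokine tumour necrosis factor alpha (TNFα) in place of vehicle for those 6 hours. Values are log2 expression per probe set on Affymetrix gene arrays, and 17958 genes were compared. No untransfected cells are among these groups, so each value is relative to the control siRNA.

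c-Jun, encoded by JUN, is a basic leucine zipper protein that pairs with members of the Jun, Fos and ATF families to form the transcription factor AP-1. AP-1 binds short DNA elements near genes of proliferation, invasion, matrix remodelling and inflammation, and it can raise or lower the output of the genes it binds. Its activity rises with growth factors, stress kinases and inflammatory cytokines, and mesenchymal-like breast cancer cells are known for high AP-1 activity.

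The mesenchymal markers VIM, CD44 and AXL were bright in the control vehicle arrays, with mean log2 levels of 12.68, 12.65 and 11.27. The hormone receptors ESR1 and PGR and the epithelial markers CDH1 and EPCAM were dim, with means of 4.35, 3.76, 4.45 and 4.06. Of 8 leukocyte markers, 7 had means from 3.76 to 5.12 and CD68 alone was bright at 9.52. Array medians lay between 5.62 and 5.68. The first principal component of the 6 vehicle arrays held 73.5% of their variance and parted the siRNAs. Whether the replicates came from separate cultures is not in the labels, and the p-values reflect the scatter of these arrays, which may be technical. A position code in the array names, read as a plate column, moved with the groups: all 3 c-Jun siRNA arrays and control replicate 3 were in column 5, while control replicates 1 and 2 were in column 7.

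JUN itself was lower with the c-Jun siRNA in every array (probe set 7916609). Its log2 level was 10.36, 10.35 and 10.36 in the control replicates and 9.82, 9.85 and 9.81 with c-Jun siRNA. The groups did not overlap, and the knockdown left 69.5% of the control signal, a log2 change of -0.52 ± 0.032 (SE, n = 3 per group; adjusted p = 4.48e-10, limma). Against the control array of the same position column the change was -0.53. The loss of signal from this probe set was thus partial, and c-Jun protein is not among these values.

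Across all genes, 5183 of 17958 changed at a Benjamini-Hochberg adjusted p under 0.05 in limma (28.9%), with 2583 higher (14.4%) and 2600 lower (14.5%). Most changes were small: the median absolute log2 change of the changed genes was 0.27, where the median standard error was 0.065. The larger changes were mostly rises. The groups did not overlap for 39.2% of genes, and for 97.2% of those that changed. At least 2-fold changes were found for 112 genes that rose (0.624%) and 48 that fell (0.267%), and at least 1.5-fold changes for 422 and 243. In the dimmest 5986 genes 4.04% changed, against 33.4% in the next 5986 and 49.2% in the brightest 5986, so the arrays could show little for dim genes. With the position column as a block 3448 genes changed, and within column 5, where 3 c-Jun siRNA arrays met 1 control array, 2264 did. Fewer genes passed in these fits over all, so lower list counts in them, given below, are to be read beside these totals. Likewise, list counts in the main fit are to be read beside 14.4% higher and 14.5% lower. All 160 genes with a 2-fold change kept their direction within column 5. They were chosen on a comparison that includes the same arrays, so the choice favours this and it is no independent check. The scatter of adjusted p against log2 fold change shows how the rises reach further from 0 than the falls.

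**Figure D1:**
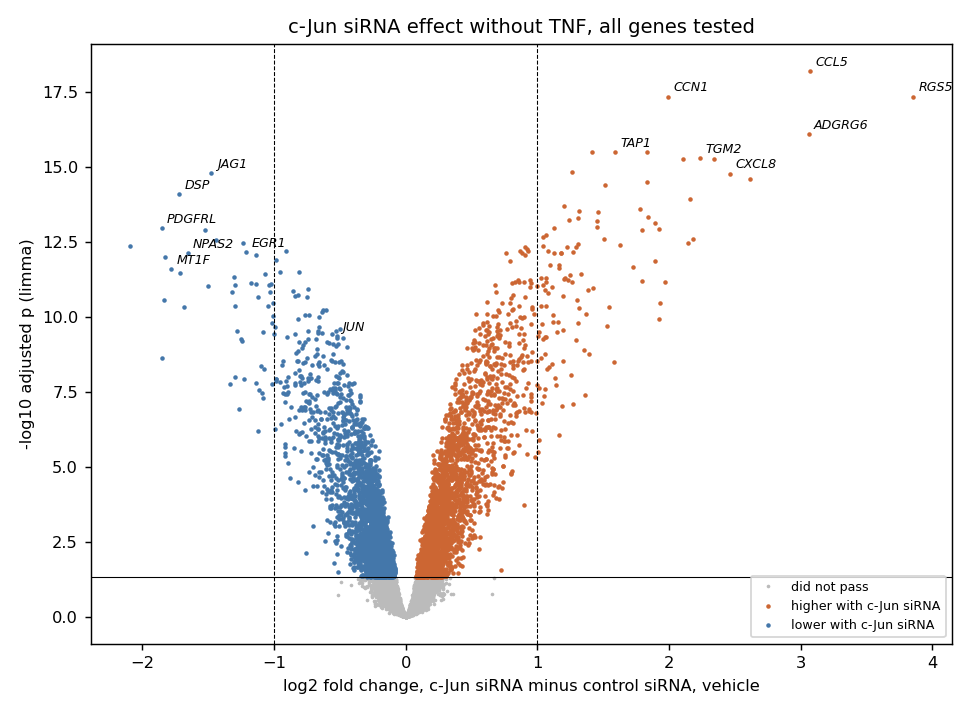
Each point is 1 of 17958 genes, with the log2 fold change of c-Jun siRNA against control siRNA in vehicle on the x axis and -log10 of the limma adjusted p on the y axis; orange genes rose, blue genes fell, grey genes did not pass, the solid line marks an adjusted p of 0.05 and the dashed lines a 2-fold change. The right arm holds 112 genes past 2-fold, led by RGS5 at 3.85, and the left arm 48.

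RGS5 and CCL5 led the rises. All leading rises and falls were chosen among genes whose groups did not overlap, so that trait of theirs was set by the choice. RGS5, which speeds the inactivation of G-protein alpha subunits and is best known from pericytes (probe set 7921916), stood at 6.27, 6.23 and 6.41 in the control arrays and at 10.12, 10.17 and 10.18 with c-Jun siRNA. It rose by 3.85 ± 0.062, which is 14.4-fold (adjusted p = 4.71e-18). CCL5, a chemokine that draws T cells and monocytes (probe set 8014316), stood at 5.82, 5.97 and 5.89 in control arrays and at 9.01, 8.95 and 8.94 after knockdown. That is a rise of 3.07 ± 0.041, or 8.40-fold (adjusted p = 6.66e-19). For both genes the lowest c-Jun siRNA array lay far above the highest control array.

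The adhesion receptor ADGRG6, known from Schwann cell myelination (probe set 8122365), was dim in the control arrays at 5.13, 5.15 and 5.16. It reached 8.17, 8.20 and 8.25 with c-Jun siRNA, 8.33-fold higher (3.06 ± 0.059). A pair of genes of nuclear receptor signalling followed. VDR, the vitamin D receptor (probe set 7962689), went from 6.02, 6.12 and 6.32 to 8.79, 8.75 and 8.76, a rise of 2.61 ± 0.066. DHRS3, which turns retinal back into retinol (probe set 7912537), went from 6.57, 6.49 and 6.64 to 8.90, 8.93 and 8.89, a rise of 2.34 ± 0.053. The 3 arrays of each group lay close together and the groups were well apart for all 3 genes. The list of vitamin D and retinoid genes did not move as one. Of its 22 measured members 4 rose (18.2%) and 6 fell (27.3%), where 14.4% of all genes rose and 14.5% fell. Blocking on the position column left 3 higher and 4 lower.

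CXCL8, the neutrophil chemokine interleukin-8 and a textbook AP-1 and NF-kB target (probe set 8095680), was at 5.69, 5.78 and 6.01 in control arrays. It was at 8.31, 8.34 and 8.22 with c-Jun siRNA, 5.52-fold higher (2.47 ± 0.061, adjusted p = 1.74e-15). No control array came near the c-Jun siRNA arrays. Enzymes that modify protein side chains were also among the leading rises. TGM2, tissue transglutaminase, which crosslinks proteins (probe set 8066214), went from 8.81, 8.75 and 8.97 to 11.05, 11.09 and 11.09, a rise of 2.23 ± 0.050. PADI2, which converts arginine to citrulline in proteins (probe set 7912937), went from 6.51, 6.45 and 6.64 to 8.79, 8.78 and 8.56, a rise of 2.18 ± 0.076. Its relative PADI3 was 2.83-fold higher, and these 3 were the members of 13 measured transglutaminase and arginine deiminase genes that rose. That is 23.1%, against 14.4% of all genes.

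GFRA1, the co-receptor that lets the neurotrophic factor GDNF signal through RET (probe set 7936494), went from 6.99, 6.88 and 6.86 to 8.99, 9.08 and 9.13, a rise of 2.16 ± 0.060. Its relative GFRA2, the co-receptor for neurturin, moved the other way: 8.24, 7.98 and 8.25 in control arrays and 6.88, 6.61 and 6.99 after knockdown, a fall by 1.33 on the log2 scale (SE 0.11). The groups did not overlap for either co-receptor. PLEKHA6, a junction-associated protein (probe set 7923635), went from 6.41, 6.39 and 6.49 to 8.72, 8.44 and 8.56, a rise of 2.15 ± 0.077.

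Rises 12 to 30 ran from 3.99-fold down to 2.88-fold. They included the vessel ligand APLN (1.89 ± 0.076) and the growth factor PGF of the VEGF family (1.72 ± 0.071). TDO2, which opens the tryptophan ring in the kynurenine pathway, rose by 1.92 with a larger spread (SE 0.11), since its control arrays read 7.74, 7.48 and 8.09. Receptor genes were IL1RAP, the shared subunit of the interleukin-1 receptor family (1.78 ± 0.053), and IL7R (1.55 ± 0.080). The carboxypeptidase CPM (1.97 ± 0.088), the vesicle protein RAB3B (1.93 ± 0.064) and the transcriptional co-regulator CITED4 (1.79 ± 0.060) rose too. Others were ITM2A (1.93), TMC5 (1.89), SOWAHD (1.79), CARNMT1 (1.63), CLCA2 (1.58) and FSTL5 (1.53). IL7R and FSTL5 had control means below 5, where the arrays resolve little, so those folds rest on dim probe sets. CCN1, CCL2, PSMB9, TAP1 and NUAK2 complete these rises and are described with their lists below.

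Among the leading falls, PDGFRL, a gene related in sequence to the PDGF receptors (probe set 8144802), stood at 8.13, 8.08 and 8.29 in control arrays and at 6.29, 6.28 and 6.37 with c-Jun siRNA. Its level after knockdown was 27.7% of control (-1.85 ± 0.061, adjusted p = 1.12e-13). SLC7A2, a cationic amino acid transporter whose gene neighbours PDGFRL (probe set 8144786), went from 8.22, 8.0 and 8.06 to 6.17, 6.48 and 6.49, or 30.5% of control. The groups were apart by more than 1 log2 unit for both neighbours.

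ADAMTS14, a protease that trims procollagen (probe set 7928147), stood at 7.24, 7.11 and 7.19 in control arrays and at 5.52, 5.48 and 4.99 after knockdown. It fell by 1.85 on the log2 scale with a larger spread than most (SE 0.13), because replicate 3 lay below the other c-Jun siRNA arrays. SLITRK2, a neuronal transmembrane protein that helps form synapses (probe set 8170307), went from 7.96, 7.80 and 7.73 to 6.01, 5.90 and 6.08 (-1.84 ± 0.091). PDE3A, a phosphodiesterase that breaks down cyclic AMP (probe set 7954293), read 7.29, 7.28 and 7.29 and then 5.55, 5.43 and 5.40 (-1.83 ± 0.072). Of 16 measured cyclic nucleotide phosphodiesterases 6 fell, among them PDE7B (-0.64 ± 0.034), while PDE1C rose by 0.86 ± 0.051. Those shares were 37.5% lower and 6.25% higher, against 14.5% and 14.4% of all genes.

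DSP, the plaque protein desmoplakin that anchors keratin filaments at desmosomes (probe set 8116780), was bright in control arrays at 9.87, 9.88 and 9.87. With c-Jun siRNA it was at 8.24, 8.11 and 8.11, which is 30.4% of control (-1.72 ± 0.047). BMP6, a bone morphogenetic protein (probe set 8116818), went from 8.48, 8.26 and 8.26 to 6.83, 6.53 and 6.59 (-1.68 ± 0.087). NPAS2, a partner of the clock protein BMAL1 and a relative of CLOCK (probe set 8043909), went from 7.97, 8.0 and 7.97 to 6.29, 6.42 and 6.26 (-1.66 ± 0.063). CLOCK itself rose by 0.69 ± 0.040 and the clock repressor BHLHE41 fell by 0.78 on the log2 scale. For DSP, BMP6 and NPAS2 every c-Jun siRNA array lay below every control array.

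Among the next falls were JAG1, a ligand of Notch receptors (-1.48 ± 0.036), the adrenergic receptor ADRA1D (-1.53 ± 0.051) and RTL9 (-1.50 ± 0.069). SULF2, which removes sulfate from heparan sulfate chains, fell by 1.32 on the log2 scale, and NID2, a basement membrane protein, and OLFML2B by 1.30 and 1.29. The T-box transcription factor EOMES (-1.30), the guanine nucleotide exchange factor DOCK11 (-1.30) and the transcription factor ONECUT2 (-1.28) fell by similar amounts. RSPO2, which amplifies Wnt signals, fell by 1.24 on the log2 scale, and CD109, a surface protein that binds TGF-beta, by 1.23. NTSR1, MAP7, DDIT4L, DNER and FAM83B fell between 1.14 and 1.27 log2 units. All these genes fell in each c-Jun siRNA array. The plot of single arrays for JUN and leading genes shows how tightly the arrays of a group lie beside the distance between groups.

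**Figure D2:**
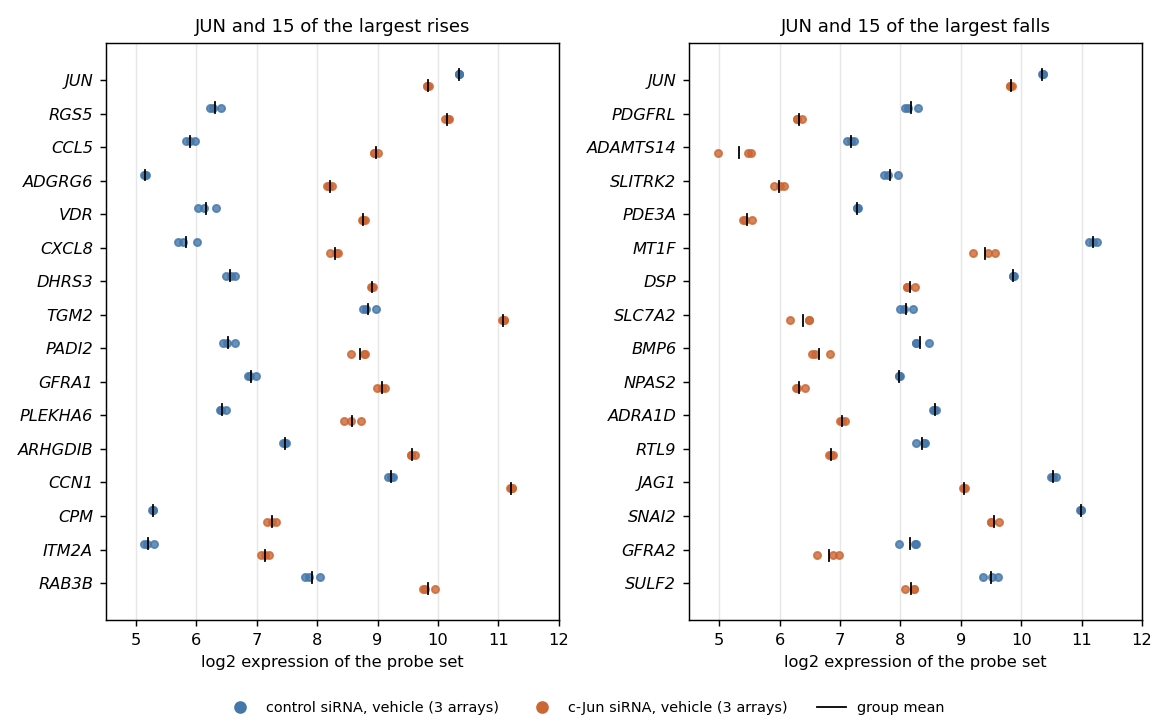
Log2 expression of JUN with 15 of the largest rises (left) and JUN with 15 of the largest falls (right) in each of the 6 vehicle arrays; blue points are control siRNA, orange points c-Jun siRNA, and the black bars are group means. JUN moves by -0.52, while RGS5 moves by 3.85 and PDGFRL by -1.85. The leading genes shown were chosen for groups that do not overlap.

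Among AP-1 subunits and partners 17 genes were measured, JUN included. Of these 5 rose (29.4%) and 6 fell (35.3%), where 14.4% of all genes rose and 14.5% fell. The median change was -0.08 against -0.01 over all genes. With the position column as a block 4 rose and 4 fell, and within column 5 the numbers were 3 and 2, JUN among the latter, with a median of 0.03 in both. JUNB, a Jun protein with weaker activating capacity, went from 9.43, 9.38 and 9.45 to 9.89, 9.93 and 9.76 (0.44 ± 0.047). The Fos family genes FOSL1 and FOSL2 rose by 0.28 and 0.16, and the small Maf protein MAFF by 0.45 ± 0.075. The rise of JDP2, a repressor that dimerizes with c-Jun, was 0.74 ± 0.11, with c-Jun siRNA arrays spread over 8.19, 7.96 and 7.68, and it did not pass within position column 5. FOSB, ATF2, ATF7, BATF3 and MAFG fell, by 0.29, 0.29, 0.15, 0.32 and 0.24 log2 units. FOS and JUND, at 0.14 and -0.08, did not pass.

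Textbook AP-1 targets were split, with 9 of 29 measured members higher (31.0%) and 7 lower (24.1%), against 14.4% and 14.5% of all genes. Within column 5 fewer passed in each direction, as over all genes, and the median was 0.02. The 9 that rose were CXCL8, CCL2, the matricellular protein THBS1 (0.93 ± 0.035), the urokinase gene PLAU (0.91 ± 0.044), CCND1, EDN1, LIF, MMP3 and IL6. The 7 that fell were the matrix protein TNC (-0.99 ± 0.039), FN1, PTGS2, HMGA1, HBEGF, EGFR and TIMP1. PTGS2 (-0.40) lost its call with values floored at 5, without control vehicle replicate 3 and without c-Jun siRNA vehicle replicate 1. TNC stood at 10.37, 10.30 and 10.37 in control arrays and at 9.37, 9.30 and 9.41 with c-Jun siRNA. THBS1 went up by a like amount, from 11.62, 11.74 and 11.66 to 12.58, 12.56 and 12.66. MMP1, a classical AP-1 target, read 7.20 and 7.35 in the group means and did not pass. A second, dimmer probe set each of CCND1, LIF and FN1 did not pass, with changes of -0.02, 0.10 and 0.08.

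To set these changes beside sequence, the window from 250 bases before to 50 after the start of each gene was searched on both strands for AP-1 letters (TGANTCA), the cyclic AMP element (TGACGTCA), the NF-kB consensus and the TEAD letters (GGAATG). No spelled motif contains another, and matches of different motifs were allowed to overlap. Promoters came from RefSeq on GRCh38.p14 and matched 13861 of the 17958 genes, among them 93 of the 112 genes that rose at least 2-fold and 36 of the 48 that fell. AP-1 letters stood in 5.58% of all matched promoters, in 7.53% of the rises and in 5.56% of the falls. The NF-kB consensus stood in 12.5% of all, 22.6% of the rises and 11.1% of the falls, and the TEAD letters in 11.7%, 11.8% and 2.78%. The cyclic AMP element stood in 2.67% of all promoters, in 1.08% of the rises and in no fall. A match is a description of the letters, not a bound site.

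The 250 bases before the start of 4 genes are printed with the matched letters in capitals, as examples of a rise and a fall with AP-1 letters and of a pair of rises with NF-kB letters. Each runs 5′ to 3′ on the gene's strand, and positions count back from -1, the last base before the start. CXCL8, chr4:73740319-73740568 on the plus strand, holds AP-1 letters at -137. PDE3A, chr12:20571829-20572078 on the plus strand, holds them at -166. NFKBIA, chr14:35404750-35404999 on the minus strand, and TAP1, chr6:32853705-32853954 on the minus strand, hold the NF-kB consensus at -81 and -72. A further TAP1 match lies past the start and is not shown.
CXCL8: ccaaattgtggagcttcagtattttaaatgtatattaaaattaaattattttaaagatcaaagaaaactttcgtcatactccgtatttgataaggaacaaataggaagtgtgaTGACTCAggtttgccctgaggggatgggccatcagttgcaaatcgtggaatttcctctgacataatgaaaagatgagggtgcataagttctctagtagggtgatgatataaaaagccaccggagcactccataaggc
PDE3A: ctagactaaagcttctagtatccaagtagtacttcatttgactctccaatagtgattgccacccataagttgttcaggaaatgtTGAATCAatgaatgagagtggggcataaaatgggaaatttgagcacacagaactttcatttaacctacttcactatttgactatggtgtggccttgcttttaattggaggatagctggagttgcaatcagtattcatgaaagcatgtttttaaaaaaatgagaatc
NFKBIA: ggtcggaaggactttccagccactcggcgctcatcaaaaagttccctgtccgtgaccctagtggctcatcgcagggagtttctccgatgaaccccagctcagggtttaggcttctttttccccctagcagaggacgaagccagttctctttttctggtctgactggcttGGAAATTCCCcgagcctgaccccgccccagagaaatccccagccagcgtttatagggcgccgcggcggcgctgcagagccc
TAP1: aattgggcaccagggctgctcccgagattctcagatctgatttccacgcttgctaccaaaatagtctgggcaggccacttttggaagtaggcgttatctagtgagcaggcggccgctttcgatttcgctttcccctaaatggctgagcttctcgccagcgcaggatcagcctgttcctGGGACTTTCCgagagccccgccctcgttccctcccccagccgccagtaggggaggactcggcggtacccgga
The window of JUN itself held none of these letters, nor did that of PSMB9, the neighbour of TAP1 on the opposite strand.

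NF-kB is the transcription factor family that inflammatory signals free from its inhibitors, and many of its regulators are its own targets. Of 26 measured subunits, inhibitors and feedback genes 17 rose and 2 fell, with a median of 0.30 against -0.01 over all genes. NFKBIA, the inhibitor IkB-alpha (probe set 7978644), stood at 9.51, 9.39 and 9.60 in control arrays and at 10.75, 10.86 and 10.70 with c-Jun siRNA (1.27 ± 0.048, adjusted p = 7.12e-13). The subunit NFKB2 went from 9.59, 9.61 and 9.57 to 10.66, 10.89 and 10.75 (1.18 ± 0.045), and REL from 7.06, 6.99 and 7.04 to 8.07, 8.07 and 8.19. No array of one group reached the other for these 3 genes. The deubiquitinases TNFAIP3 (A20) and CYLD, which limit the pathway, rose by 0.89 and 0.67, RELB by 0.82 and IER3 by 0.96 ± 0.050. The subunit RELA, at -0.05, did not pass, and NFKBIZ and IKBKE fell by 0.14 and 0.19 log2 units. Within position column 5 fewer of the 26 passed, as over all genes, and the median was 0.33.

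Of 20 measured chemokines 8 rose (40.0%) and CXCL12 fell (5.0%), against 14.4% and 14.5% of all genes, and the median was 0.13. Within position column 5 fewer rose, as over all genes, CXCL12 was lower by 1.16 log2 units and the median was 0.03. That median depends on the dim members, since it was 0.0 with values floored at 5 and 1.32 with the dimmest 50% of genes left out. Beside CCL5 and CXCL8, the monocyte chemokine CCL2 went from 9.38, 9.44 and 9.56 to 11.26, 11.30 and 11.33 (1.84 ± 0.039). The neutrophil chemokines CXCL2 and CXCL5 rose by 0.79 and 0.73, and CXCL16, CXCL14 and CXCL3 by 0.41, 0.23 and 0.21. CXCL12, a homeostatic chemokine that binds CXCR4, was lower in each knockdown array: 6.15, 6.13 and 6.39 in control arrays against 5.24, 5.40 and 5.05 (-0.99 ± 0.10). Several chemokines, among them CXCL9, CXCL10, CXCL11 and CCL20, had means below 4.5 in both groups, where the arrays resolve little. Of 25 cytokine and colony-stimulating factor genes 8 rose, or 32.0% against 14.4% of all genes. They were led by IL34 (1.07 ± 0.079) and CSF1 (0.90 ± 0.040), both ligands of the macrophage receptor CSF1R. Fewer rose within column 5, where the list median was 0.09, against 0.04 in the main fit.

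Genes of MHC class I presentation had a median change of 0.52. These genes cut, transport and load peptides that cells show to cytotoxic T cells. Of 18 measured members 16 rose, and ERAP2 (0.06) and NLRC5 (0.18) did not pass. PSMB9, an immunoproteasome subunit (probe set 8118571), went from 6.50, 6.46 and 6.58 to 8.28, 8.50 and 8.28 (1.84 ± 0.057). The peptide transporter TAP1 (probe set 8125512) went from 8.37, 8.33 and 8.35 to 9.87, 9.97 and 9.97, 3.00-fold higher (1.59 ± 0.033). TAP1 and PSMB9 are neighbours on opposite strands and share the region between their starts. The trimming peptidase ERAP1 went from 8.72, 8.85 and 8.76 to 9.89, 9.88 and 9.93 (1.12 ± 0.037). HLA-B rose by 0.92 ± 0.034 and HLA-C by 0.81, and the shared light chain B2M by 0.39 ± 0.038. HLA genes are so alike that their probe sets may read each other's transcripts, so the value of a single HLA gene is uncertain. Within position column 5, 14 of the 18 rose.

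Interferon-stimulated genes rose in 20 of 38 measured cases and fell in 1, ISG20, with a median of 0.34. Of the 38, 8 had means below 5 in both groups. The median was 0.13 with values floored at 5, where 17 rose, and reached 0.67 among the alternatives. SAMD9L, an antiviral protein that restrains translation, went from 5.57, 5.27 and 5.47 to 6.87, 6.74 and 6.97 (1.42 ± 0.066). UBE2L6, the conjugating enzyme for ISG15, rose by 1.20 ± 0.070, the apoptosis factor XAF1 by 1.12 ± 0.063 and PARP14 by 1.06 ± 0.050. Other classical members did not pass: ISG15 was at 0.13, MX1 at 0.13, OAS1 at 0.07 and IFI6 at 0.02. The list was therefore divided, with members that rose more than 2-fold beside members near 0. Of 19 measured nucleic acid sensors and type I interferon genes 9 rose, with the double-stranded RNA receptor TLR3 from 6.03, 5.97 and 6.15 to 7.34, 7.37 and 7.44 (1.33 ± 0.057) and the cytosolic RNA sensor RIGI at 0.70 ± 0.041. The interferon genes IFNB1 and IFNL1 had means from 3.49 to 4.94 in both groups and did not pass. Within position column 5 fewer members passed, as over all genes, and the medians were 0.27 for interferon-stimulated genes and 0.13 for sensor genes.

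YAP and TEAD target genes rose in 13 of 24 measured cases, and the other 11 did not pass. YAP is the co-activator that the Hippo kinases hold in check, and TEAD proteins are its DNA-binding partners, often at sites shared with AP-1. CCN1, a matricellular protein and standard YAP target (probe set 7902687), went from 9.17, 9.22 and 9.26 to 11.18, 11.22 and 11.22, 3.99-fold higher (1.99 ± 0.031, adjusted p = 4.71e-18). The kinase NUAK2 went from 7.18, 7.07 and 7.14 to 8.90, 9.0 and 8.98 (1.84 ± 0.047). AJUBA, a LIM protein that binds the Hippo kinase LATS, rose by 1.45 ± 0.048, CRIM1 by 1.42 ± 0.030, AMOTL2 by 1.31 and CCN2 by 1.20. ANKRD1 and F3, also standard YAP targets, had means from 4.09 to 4.84 and did not pass. The list median was 0.20, and it was also 0.20 within position column 5, where fewer members passed, as over all genes.

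Genes of the unfolded protein and amino acid stress responses rose in 19 of 27 measured cases and fell in 2, with a median of 0.20. The largest change was 0.95, below the largest rises among chemokines (3.07) and NF-kB genes (1.27), although the chemokine median was lower, at 0.13. CHAC1, which degrades glutathione, went from 8.01, 8.03 and 8.01 to 8.93, 9.09 and 8.91 (0.95 ± 0.067). The cystine transporter SLC7A11 rose by 0.66 ± 0.051, the endoplasmic reticulum protein SDF2L1 by 0.65 ± 0.079 and the serine synthesis enzyme PSAT1 by 0.61 ± 0.031. ATF4 and DDIT3, the transcription factors of this response, were at 0.08 and -0.09 and did not pass, and ATF5 and STC2 fell by 0.23 and 0.29 log2 units. Within position column 5 fewer of the 27 passed, as over all genes, and the median was 0.18.

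The heat map of list members by array shows these groups side by side with the lists that fell.

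**Figure D3:**
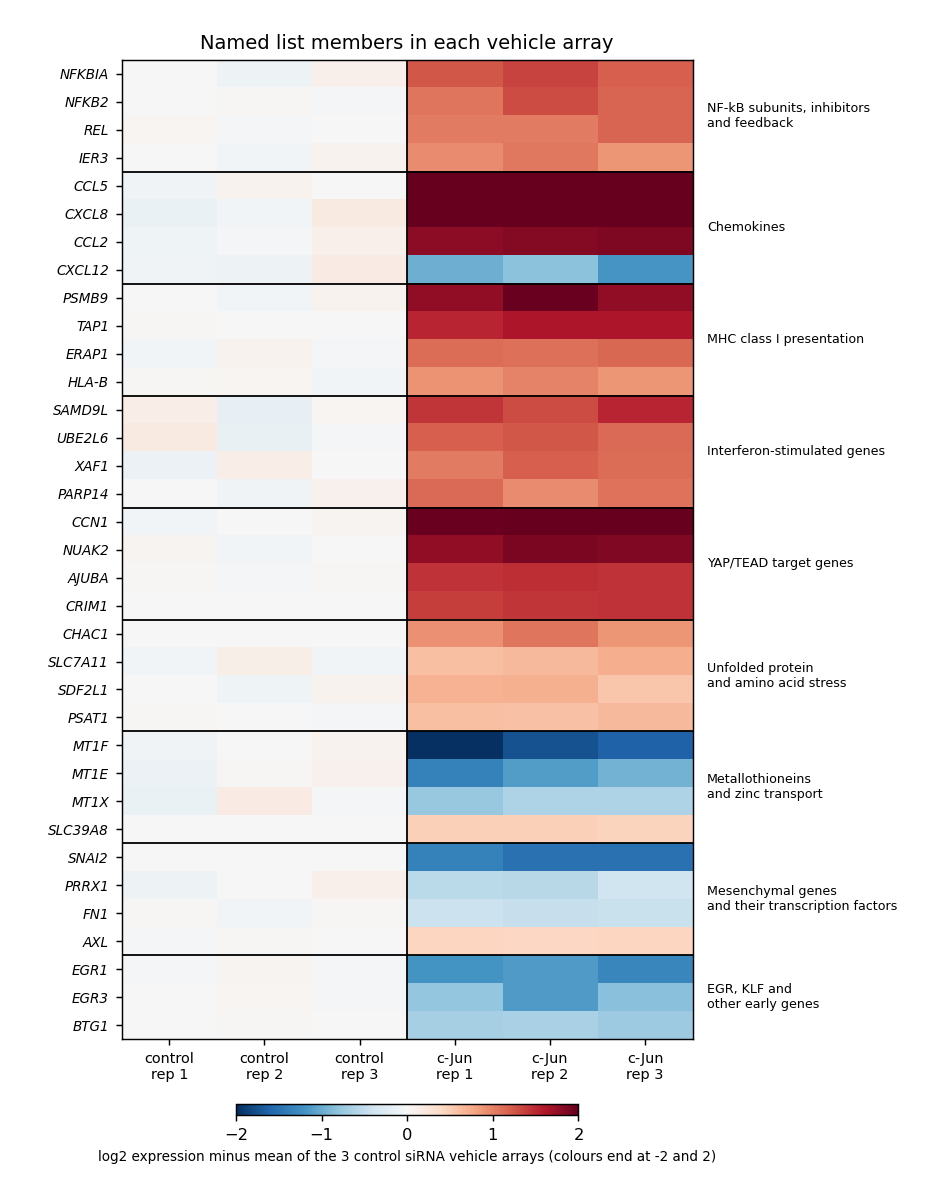
Log2 expression of 35 members of 9 gene lists in each vehicle array, minus the mean of the 3 control siRNA arrays; red is higher and blue lower, and colours end at -2 and 2. The 3 control columns stay near white, while the 3 c-Jun siRNA columns agree in colour for every gene, from CCN1 at 1.99 to MT1F at -1.78. The genes shown are at most 4 called members per list that moved most, so the choice favours this pattern.

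Metallothioneins and zinc transport genes moved in opposite ways. Of 18 measured genes 7 fell, all of them metallothioneins, small proteins that bind zinc and copper. MT1F (probe set 7995825) went from 11.12, 11.19 and 11.26 to 9.20, 9.45 and 9.57, which is 29.0% of control (-1.78 ± 0.075). MT1E went from 8.01, 8.15 and 8.22 to 6.78, 7.0 and 7.19 (-1.14 ± 0.090) and MT1X fell by 0.67 on the log2 scale. The arrays of a group were spread more widely for these genes than for most, but the groups did not overlap. The 8 genes that rose were the metal-responsive transcription factor MTF1 and zinc transporters, led by the importer SLC39A8 (0.47 ± 0.030). Metallothionein transcripts are near-identical, so their probe sets may share signal and their single values are uncertain. With the position column as a block 2 of the 18 rose and 4 fell, and within column 5 the numbers were 2 and 3. Without c-Jun siRNA replicate 3, 5 of them rose.

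Mesenchymal genes and their transcription factors fell in 12 of 19 measured cases and rose in 4, with a median of -0.17. In column 5 alone 8 fell and 1 rose. SNAI2, the transcription factor Slug that represses epithelial genes (probe set 8150698), had a mean of 10.99 in control arrays and stood at 9.64, 9.50 and 9.50 with c-Jun siRNA, 36.9% of control (-1.44 ± 0.051). TWIST1, TWIST2, ZEB1 and PRRX1 fell too, by 0.20, 0.38, 0.27 and 0.50 log2 units. The structural proteins changed less, with FN1 at -0.45 ± 0.029 and CDH2 at -0.14. The receptor kinase AXL, which also counts among YAP targets, went the other way (0.43 ± 0.031), as did SNAI1 (0.25).

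Junction and epithelial genes did not rise as a group while mesenchymal factors fell. Of 29 measured genes 6 rose (20.7%) and 4 fell (13.8%), near the 14.4% and 14.5% of all genes. Blocking on the position column gave 7 higher and 3 lower. The 4 that fell were the desmosome genes DSP, DSC2 (-0.72), DSC3 (-0.33) and JUP (-0.16). Among those that rose, the tight junction protein CLDN1 went from 10.57, 10.62 and 10.58 to 11.85, 11.77 and 11.85 (1.24 ± 0.039), CLDN12 rose by 1.18 ± 0.045 and CLDN11 rose by 0.95 ± 0.082. The keratins KRT80 and KRT18 rose by 0.90 and 0.77. CDH1, the epithelial cadherin, rose by 0.55 ± 0.090 but stayed dim, at 4.89, 4.99 and 5.12 after knockdown, and did not pass once values were floored at 5.

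Immediate early genes of the EGR, KLF and nuclear receptor families fell in 11 of 21 measured cases and rose in 5, with a median of -0.24. In column 5 alone 8 fell and 5 rose. EGR1, a zinc finger factor induced by growth signals (probe set 8108370), went from 10.24, 10.32 and 10.23 to 9.07, 9.12 and 8.96 (-1.21 ± 0.046). EGR3 went from 6.18, 6.21 and 6.14 to 5.41, 5.04 and 5.34 (-0.91 ± 0.11), and the antiproliferative gene BTG1 fell by 0.68 on the log2 scale. The orphan receptors NR4A1, NR4A2 and NR4A3 fell by 0.32, 0.50 and 0.67. KLF10 and MYC rose by 0.54 and 0.25, beside CCN1, which also belongs to this list.

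Cell cycle genes changed by small amounts. DNA replication genes rose in 16 of 34 measured cases and fell in 3, led by the origin licensing factor CDC6 (0.44 ± 0.061) and thymidylate synthase TYMS (0.43 ± 0.039). Mitosis genes fell in 10 of 29 cases and rose in 1, with the ubiquitin-conjugating enzyme UBE2C at -0.29 ± 0.035. Thus 47.1% of the replication genes rose and 34.5% of the mitosis genes fell, where 14.4% of all genes rose and 14.5% fell. The cell cycle kinase CDK6 rose by 1.12 ± 0.043 and the CDK inhibitor CDKN1A fell by 0.84 on the log2 scale. With the position column as a block, 9 replication genes rose and 7 mitosis genes fell. Within column 5, where few mitosis genes passed, the median was 0.10 for replication genes, -0.05 for mitosis genes and -0.01 over all genes. The pro-apoptotic BCL2 family gene PMAIP1 (NOXA) went from 7.58, 7.58 and 7.61 to 9.10, 9.08 and 9.12 (1.51 ± 0.039), while BCL2L11 (BIM) fell by 0.48.

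Of 13 measured RNA interference genes, which process or use siRNAs, 4 rose (30.8%) and 2 fell (15.4%). Of all genes 14.4% rose and 14.5% fell. Blocking on the position column left 3 of the 13 higher and 1 lower. DICER1, the enzyme that cuts small RNA precursors, went from 9.77, 9.78 and 9.74 to 10.39, 10.52 and 10.50 (0.71 ± 0.048), and AGO3 rose by 0.60 ± 0.045. AGO2, the slicing Argonaute, fell by 0.14. The sensor genes TLR3 and RIGI, given above, rose beside them, and the part of double-stranded RNA sensing in the other changes was not tested. Of 7 endothelial markers ROBO4 and TEK rose (1.05 ± 0.090 and 0.93 ± 0.074), while PECAM1, CDH5, VWF and KDR stayed between 3.81 and 4.70 in both groups. The dot plot of all lists gives each member's change beside the list median.

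**Figure D4:**
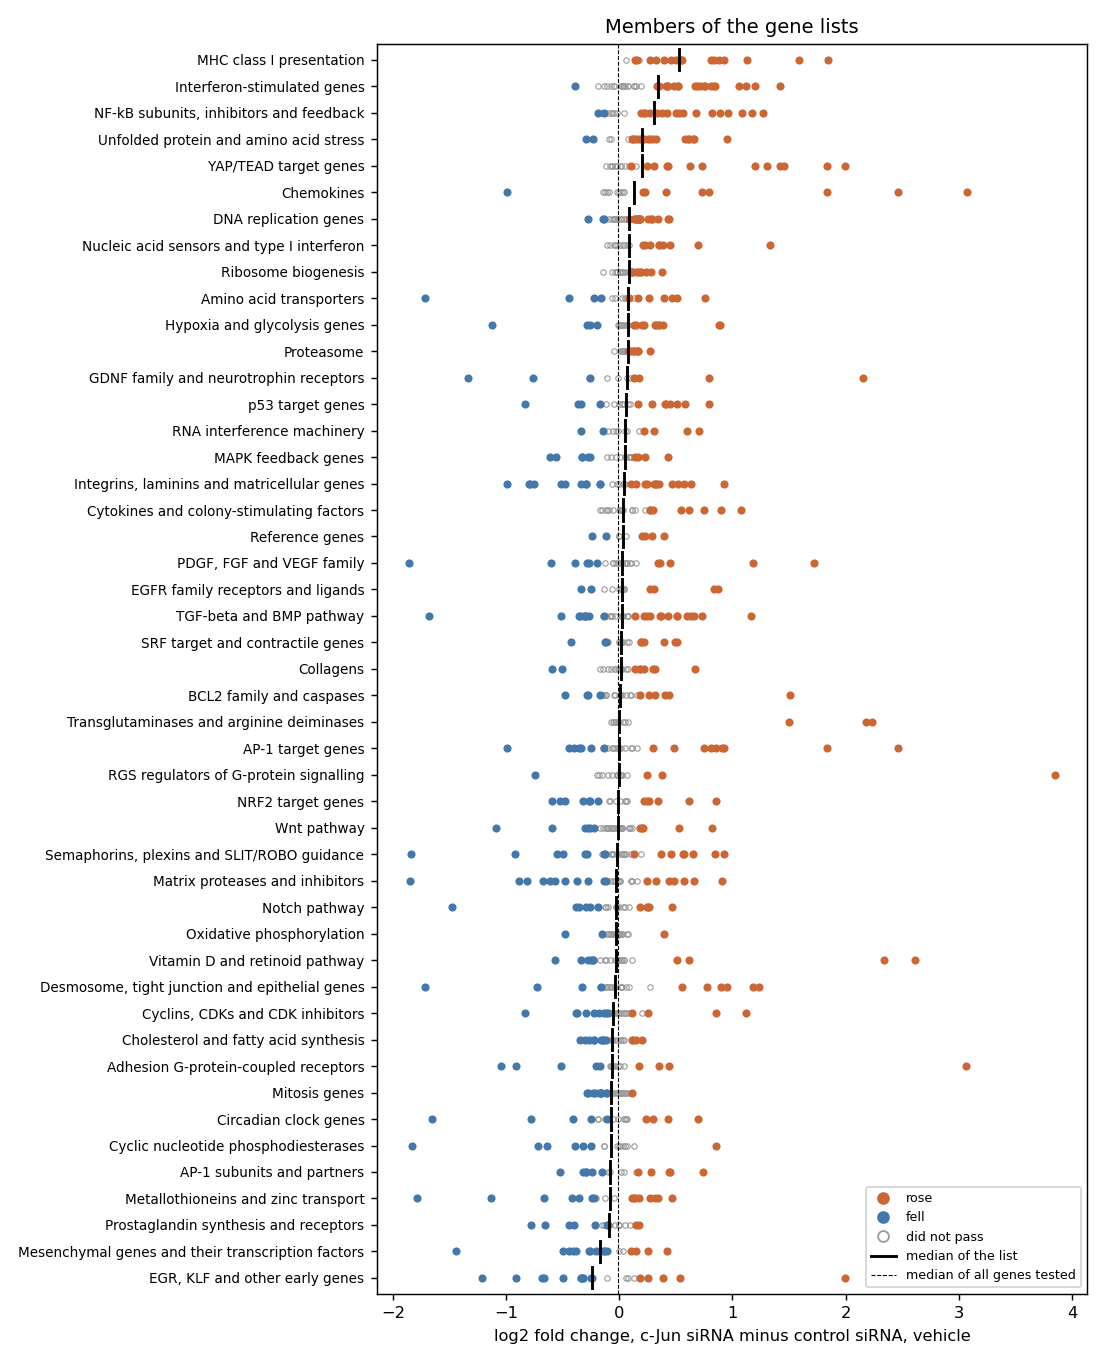
Log2 fold change of c-Jun siRNA against control siRNA in vehicle for each measured member of 47 gene lists; orange members rose, blue fell, open circles did not pass, the black bar is the list median and the dashed line the median of all genes. MHC class I presentation has a median of 0.52 and the EGR, KLF and other early genes one of -0.24, and most lists hold members on both sides of 0.

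The same siRNA contrast could be read in the 6 TNFα arrays, none of which enters the vehicle comparison. There 5116 genes changed (28.5%), and 3369 changed the same way in both, 65.0% of the vehicle calls and 65.9% of the TNFα calls, while 104 changed in opposite ways. Across genes, which are not independent replicates, the effects had a Pearson r of 0.75 and a Spearman correlation of 0.60. Of the 160 genes with a 2-fold change in vehicle, 152 were called the same way under TNFα. All 60 leading genes were called the same way there too.

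The test of the difference between treatments passed for 33 of the 60 leading genes and for 5.47% of all genes. The 60 were chosen for large effects in vehicle, and the same vehicle values enter the difference, so the choice favours both a difference and a smaller effect under TNFα. The counts are therefore a description. Of the 18 rises among the 33, 17 were smaller under TNFα. CCL5 rose by 3.07 in vehicle and by 0.64 with TNFα, a difference of -2.43 ± 0.058, and CXCL8 by 2.47 and 0.19 (-2.27 ± 0.086). CCL2 went from 1.84 to 0.15 and TAP1 from 1.59 to 0.18, and PGF and NUAK2 followed with 0.24 and 0.45 under TNFα. The control siRNA means themselves differed between treatments. They were higher with TNFα than with vehicle for CCL5 (11.60 and 5.90), CXCL8 (11.41 and 5.82) and CCL2 (12.66 and 9.46). The same held for TAP1 (11.51 and 8.35) and NUAK2 (9.83 and 7.13), whereas PGF was lower (5.34 and 6.56). The part of these levels in the smaller effects was not tested. DHRS3 alone rose more under TNFα, by 2.90 against 2.34. For ADGRG6 (3.06 and 2.93), VDR (2.61 and 2.56) and PADI2 (2.18 and 1.89) the difference between treatments did not pass.

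Of the 15 leading falls with a difference, 13 were smaller under TNFα, a direction the same choice favours. Examples were PDE3A (-1.83 and -0.96) and EGR1 (-1.21 and -0.56). SNAI2 and EOMES fell further under TNFα, SNAI2 by 2.01 against 1.44 on the log2 scale. The counts of some lists differed between treatments and those of others stayed close, although no test was run on lists. Over all genes 14.4% were higher and 14.5% lower in vehicle, and 14.1% and 14.4% under TNFα. Of 38 interferon-stimulated genes 20 were higher and 1 lower in vehicle but 4 higher and 21 lower under TNFα, with a median of -0.31. Of 26 NF-kB genes the numbers were 17 and 2 in vehicle and 6 and 11 under TNFα. Of 27 stress genes they were 19 and 2 in vehicle and 21 and 1 under TNFα. The 24 YAP/TEAD targets gave 13 and 0 in vehicle and 12 and 3 under TNFα, and the 21 early genes 5 and 11, then 4 and 11. The scatter of both effects shows the leading rises that drop toward the x axis.

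**Figure D5:**
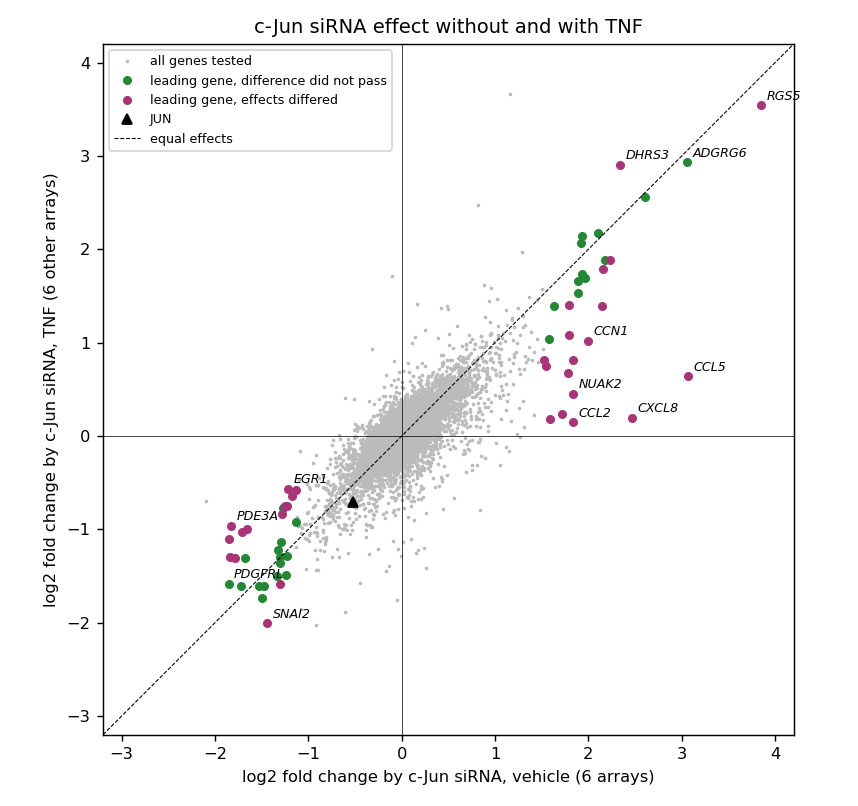
Log2 fold change by c-Jun siRNA in vehicle (x axis, 6 arrays) and with TNFα (y axis, the 6 other arrays) for 17958 genes; purple leading genes had effects that differed in limma, green ones did not pass that test, the triangle is JUN and the dashed line marks equal effects. CCL5, CXCL8 and CCL2 lie far below the line, at 0.64, 0.19 and 0.15 on the y axis, while RGS5 and ADGRG6 lie near it.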

How the data were processed

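Each of the 4 groups held 3 Affymetrix arrays of BT549 total RNA, grouped and numbered by the labels. The submitters' processing notes name Affymetrix Expression Console 1.1 and PLIER without their roles, and the genome build is not given in the sources used here. The authors' deposited values were read as log2 expression per probe set, the base inferred from their range of 2.27 to 14.0 (33297 probe sets), and were not normalised further. Of these, 19181 probe sets had 1 gene symbol, 2055 several and 12061 none. Symbols were updated through Entrez identifiers for 19143, and each gene kept its brightest probe set by the mean of 12 arrays (895 genes had several), leaving 17958 genes, dim ones included.

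All 12 arrays entered 1 fit in limma 3.58.1 (R 4.3.3) that gave each group its own mean, with a mean-variance trend, 8 residual and 9.29 prior degrees of freedom. Tests were two-sided, with Benjamini-Hochberg adjustment over all genes and a threshold of 0.05. Errors of log2 changes are standard errors of that fit, and precision is limited by the 3 arrays per group. The script was tested on simulated data. Python 3.11.15 with pandas 2.3.3 and matplotlib 3.10.9 made tables and plots.

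The comparison, the 47 gene lists with 1085 of 1176 entries measured, and the 6 marker lists were chosen with earlier results of these data known. Named genes are JUN, the 30 largest rises and 30 largest falls among called genes whose groups did not overlap (39.2% of all genes did not), and, per list, at most 4 called members that moved most. Other list members are given as values. A few genes taken by this rule, the largest fall among them, are not reported here. Replicate numbers were not used as pairs. The deviations of same-numbered arrays correlated at 0.036, -0.028 and 0.033, and those of differently numbered arrays at -0.11 to 0.086. With 3 arrays per group this cannot exclude pairing. The position column is an inference from array names. Alternatives were scalings, a floor, filters on dim genes, other variance models, array weights, blocks and single arrays left out.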

Additional observations from a re-analysis of the deposited data

Results flagged for a closer look

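The values here are differences on the log2 scale between the effect of c-Jun siRNA under TNFα and its effect with vehicle, for JUN and those leading genes named in the text for which limma's test of that difference passed. The leading genes were chosen for large effects in vehicle, which favours a smaller effect under TNFα. JUN fell further under TNFα, with a difference of -0.19 (SE 0.045, adjusted p = 0.0173). The rises that were smaller under TNFα had differences of -2.43 for CCL5, -2.27 for CXCL8, -1.69 for CCL2, -1.49 for PGF, -1.40 for TAP1 and -1.38 for NUAK2. Further down the same order stood -1.11 for IL1RAP, -1.03 for PSMB9, -0.97 for CCN1, -0.80 for IL7R, -0.76 for PLEKHA6 and -0.72 for SOWAHD. The remaining smaller rises differed by -0.71 for FSTL5, -0.39 for CITED4, -0.36 for GFRA1, -0.35 for TGM2 and -0.30 for RGS5. DHRS3 rose more under TNFα, with 0.56. Among the 13 falls that were smaller under TNFα, the 12 named ones had differences of 0.87 for PDE3A, 0.74 for ADAMTS14, 0.69 for SLC7A2, 0.66 for NPAS2, 0.65 for EGR1, 0.56 for MT1E and 0.54 for SLITRK2. Those with less difference stood at 0.52 for DNER, 0.50 for MAP7, 0.48 for MT1F, 0.48 for DDIT4L and 0.44 for ONECUT2. Falls that went further under TNFα were SNAI2 and EOMES, with -0.57 and -0.28. Causes were not tested.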

How the results depend on the processing

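JUN, the 222 other genes taken by the rule and the counts of changed genes were recomputed under 27 alternatives. Leaving out the dimmest 30% or 50% of genes left 218 and 180 of the 222 to test. No gene changed sign where it was tested, 186 kept their call in each alternative that tested them, and 36 lost it in at least 1. The position column moved the counts most. With the column as a fixed block 3448 genes changed and 1699 of them were lower, and within column 5 the numbers were 2264 changed, 1223 higher and 1041 lower. That last fit had 2 residual degrees of freedom and 1 control array. All 223 named genes kept their sign there, which is favoured because all but JUN were chosen with these same arrays included. Centring each array on its median moved the share of changed genes that were lower from 50.2% to 38.8%, a shift of 0.034 in the median of all genes. With each array left out in turn, between 4510 and 5282 genes changed, 2236 to 2629 higher and 2189 to 2653 lower. JUN then lay between -0.54 and -0.52, and the leading genes whose effects differed under TNFα, JUN included, numbered 30 to 35. With the replicate number as a block 5072 genes changed, against 5183 without it, and no named gene lost its call. Without c-Jun siRNA vehicle replicate 3 the metallothionein and zinc list held 5 rises in place of 8. The precision is limited by 3 arrays a group, and by low signal for dim genes.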
